A study of Mus musculus with 9 samples.

Results

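The 42 genes described here encode the machinery that brings secretory proteins into the endoplasmic reticulum (ER) and loads them into the vesicles that leave it. They were chosen by symbol, and all 42 were found among the 24420 rows of the count table and among the 12501 genes that passed the filter on low counts. By role they comprised 6 genes of the Sec61 translocon and its partners Sec62 and Sec63, 4 of the TRAP complex, 7 of the signal recognition particle (SRP) and its receptor, 5 of the signal peptidase complex, 12 of the COPII coat and 8 of cargo reception, retrieval and vesicle fusion. RNA had been sequenced from pancreatic islets of female mice, hand-picked after collagenase digestion and kept overnight in medium with 5 mM glucose. The 4 knockout (KO) libraries carried the genotype Rip-cre; Ogt f/f. Its Cre is driven by the rat insulin promoter and so is meant to act in beta cells. Which islet cells lost or kept Ogt was not measured. The 5 wild-type (WT) libraries carried floxed Ogt with no Cre named in the labels, as Ogt f/+ in WT replicates 1 and 3 and as Ogt f/f in WT replicates 2, 4 and 5. All groups therefore had at least 1 floxed allele, and an effect of the Cre transgene cannot be told apart from one of the Ogt deletion. KO replicates 1 and 2 and WT replicates 1 to 3 were sequenced in run 1, and KO replicates 3 and 4 and WT replicates 4 and 5 in a later pool that the labels call both run 3 and 2nd run and that is called run 3 here. The labels give neither an age nor a statement that each library is another mouse, so a p-value here weighs KO against WT by the spread among libraries, and that spread may be technical.

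Proteins bound for secretion carry an N-terminal signal that SRP recognises as it emerges from the ribosome, after which the SRP receptor docks the ribosome at the Sec61 channel. TRAP assists insertion through the channel, and signal peptidase removes the signal on the lumenal side. Folded cargo is then gathered at ER exit sites by the COPII coat, built from Sar1, Sec23, Sec24, Sec13 and Sec31 on a scaffold of Sec16, and KDEL receptors return escaped ER residents. Beta cells pass preproinsulin and other granule proteins through this route in bulk.

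Total counts ranged from 3796043 to 6073537 per library, and 9.62% to 28.5% of them came from Rn45s, the precursor of ribosomal RNA. Ogt, the targeted gene, which encodes O-GlcNAc transferase, had 23.7, 24.1, 30.9 and 39.3 CPM (counts per library size after TMM scaling) in KO libraries, against 69.6, 54.1, 83.0, 67.0 and 81.8 CPM in WT libraries. Its log2 fold change was -1.30 ± 0.14 (SE), and the groups did not overlap. Among cell markers, 5 of 10 beta cell genes were called lower in KO (50%, against 8.96% of all tested genes), while Ins1 and Ins2 were not called. In run 1 the 10 summed to 55843 and 83074 CPM in KO against 64834, 64012.5 and 110232 CPM in WT. In run 3 they summed to 42845 and 46675 CPM in KO against 54501 and 47900 CPM in WT. Ins1 and Ins2 made up most of each sum. Of 20 acinar genes, whose cells are rich in the ER machinery, 16 were tested and 3 were called lower (18.8%, against 8.96%). Their sum was 2602 and 557 CPM in KO against 3028, 7665 and 5729 CPM in WT in run 1, and 133 and 336 CPM in KO against 197 and 198 CPM in WT in run 3, where Zg16 was at 0 in KO replicate 4 and Ptf1a was at 0 in both WT libraries. In bulk RNA, fewer cells of a type and less RNA per cell cannot be told apart. For each called gene the log2 fold change in each run is given beside its values, and that from a fit with the acinar level as a covariate is given after the results by role.

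In KO islets 9 of the 42 genes fell, 1 rose and 32 were not called at an adjusted p under 0.05 (edgeR's quasi-likelihood test with run as a term, Benjamini-Hochberg adjustment over all tested genes). The share that fell was 21.4%, against 8.96% of all tested genes, and the share that rose was 2.38%, against 9.56%. Calls in either direction made up 18.5% of all tested genes. The genes that fell were Sec11c and Spcs3 of signal peptidase, Sec16b of the COPII scaffold, the cargo receptors Lman1 and Tmed10, Ssr3 of TRAP, Srpr and Srp9 of the SRP pathway, and the Sec61 partner Sec63. Srp14, the partner of Srp9, rose. The median log2 fold change of the 42 genes was -0.11, against 0.02 over all tested genes, and 28 of the 42 were negative, against 48.0% of tested genes. Sec11c (-0.99) and Sec16b (-1.07) had the largest log2 fold changes, and the other 8 called genes lay between -0.54 and 0.45, each under 1.5-fold.

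**Figure D1:**
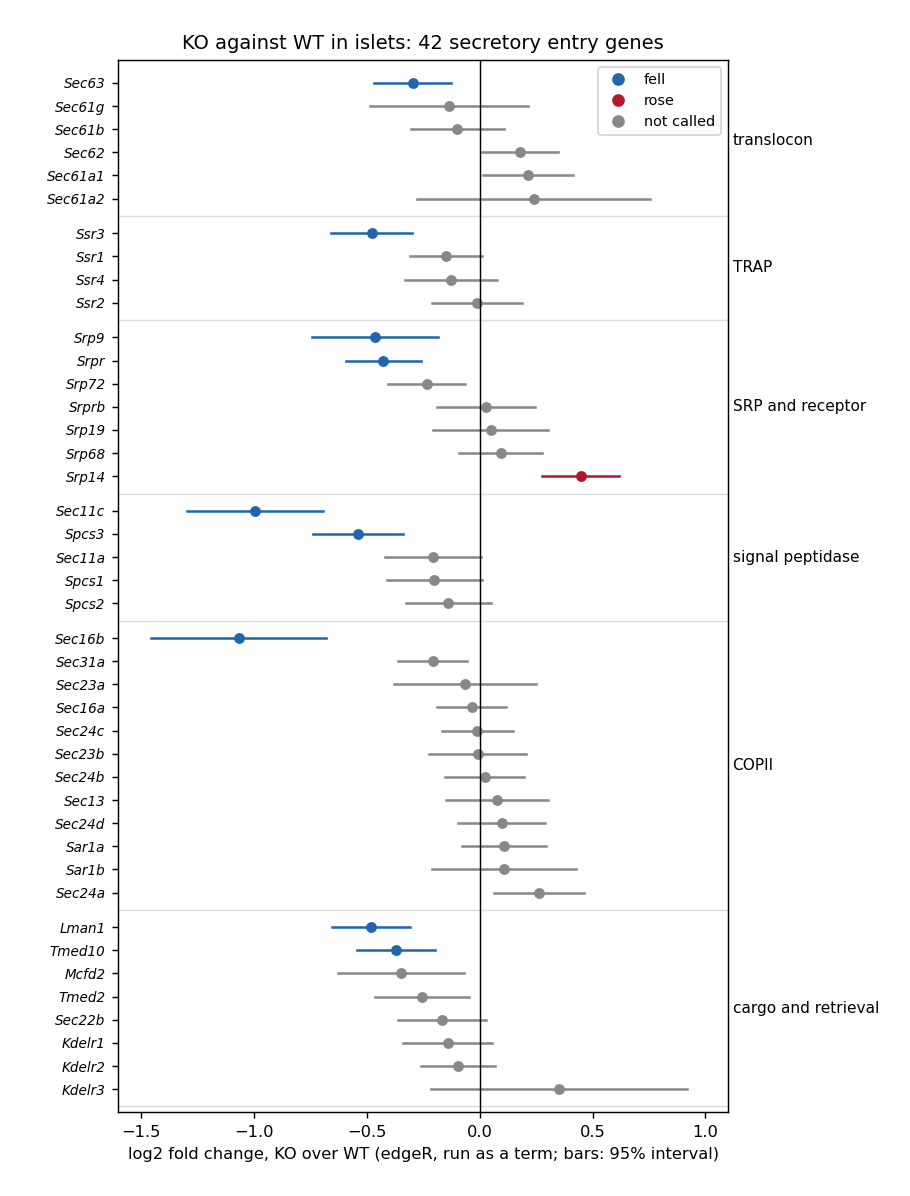
Log2 fold change of KO over WT for each of the 42 genes from edgeR's fit with run as a term, with its 95% interval, ordered within 6 role groups. The 9 genes that fell (blue) are spread over all 6 groups, Srp14 (red) is the 1 gene that rose, and the intervals of most COPII genes lie around 0.

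**Figure D2:**
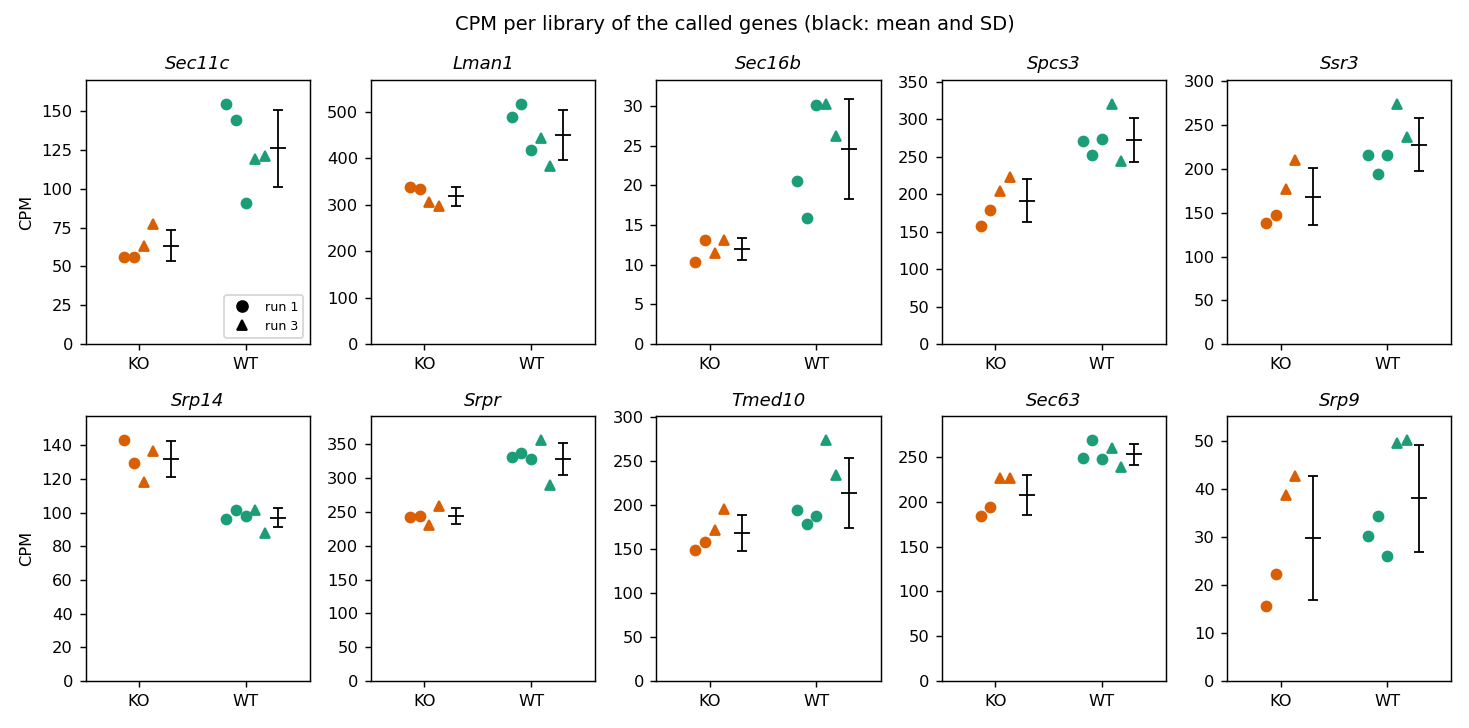
CPM in each KO and WT library for the 10 called genes, with circles for run 1, triangles for run 3, and the mean and SD of each group in black. For Sec11c, Lman1, Sec16b, Spcs3, Srp14, Srpr and Sec63 the 4 KO libraries do not overlap the 5 WT libraries, while for Ssr3, Tmed10 and Srp9 they separate within each run but not across runs.

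Signal peptidase was the role group with the largest share of falls, 2 of its 5 genes (40%, against 8.96% of all tested genes). All 5 fold changes were negative, against 48.0% of all tested genes. Sec11c encodes one of the pair of alternative catalytic subunits that cut the signal sequence. It had 55.9 and 56.2 CPM in KO libraries of run 1 and 63.5 and 77.3 CPM in those of run 3, against 155, 144 and 90.5 CPM in WT libraries of run 1 and 119 and 121 CPM in those of run 3. Every KO library lay below every WT library, and WT replicate 3 came nearest. Sec11c averaged 63.2 ± 10.0 CPM in KO (SD, n = 4) and 126 ± 25.0 CPM in WT (SD, n = 5), and its log2 fold change was -0.99 (SE 0.14, adjusted p = 0.000227 in edgeR's test). The fall was -1.22 in run 1 and -0.77 in run 3. Spcs3, a non-catalytic subunit needed for the complex's activity in yeast, had 158, 179, 204 and 224 CPM in KO libraries, against 271, 253, 273, 321 and 244 CPM in WT libraries. Again no KO library reached the lowest WT library, and the log2 fold change was -0.54 ± 0.09 (SE, adjusted p = 0.00113 in edgeR's test), at -0.67 in run 1 and -0.41 in run 3. Spcs3 lies on chromosome 8 at 54520433 to 54529998 (GRCm38.p6).

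The other catalytic subunit, Sec11a, was not called, at 85.7 ± 6.22 CPM in KO (SD, n = 4) and 100.3 ± 12.7 CPM in WT (SD, n = 5) and a log2 fold change of -0.21 (95% interval -0.42 to 0.01). Its log2 fold change was -0.42 in run 1 and 0.01 in run 3, a difference that edgeR's interaction test did not call (adjusted p = 0.795). Spcs1 and Spcs2, small accessory subunits, had log2 fold changes of -0.20 and -0.14 and were not called. Counted against each other, there were 0.653, 0.731, 0.698 and 0.867 reads of Sec11c for each read of Sec11a in KO libraries, against 1.39, 1.31, 0.886, 1.21 and 1.52 in WT libraries. The ratio was lower in every KO library than in every WT library. Reads also depend on transcript length, so which of the pair was the more abundant is given on the FPKM scale, which divides by length. Sec11c had 75.0, 77.6, 87.0 and 111 FPKM in KO libraries, against 213, 200.2, 121, 171 and 172 FPKM in WT libraries. Sec11a had 78.9, 69.7, 85.0 and 81.6 FPKM in KO libraries, against 101, 99.2, 92.7, 96.7 and 73.0 FPKM in WT libraries. On this scale Sec11c was above Sec11a in all WT libraries and in all KO libraries except replicate 1, and by less in those KO libraries than in the WT libraries of the same run.

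Of the 7 genes of SRP and its receptor, 2 fell (28.6%, against 8.96% of all tested genes) and 1 rose (14.3%, against 9.56%). Srp9 and Srp14 encode the heterodimer that holds back translation while the ribosome is carried to the ER. Srp14 had 143, 129, 118 and 136 CPM in KO libraries, against 96.2, 101, 97.7, 102 and 87.9 CPM in WT libraries. All KO libraries were above all WT libraries, and the log2 fold change was 0.45 ± 0.08 (SE, adjusted p = 0.00133 in edgeR's test), at 0.45 in run 1 and 0.42 in run 3. Srp9 had 15.6 and 22.4 CPM in KO libraries of run 1 and 38.7 and 42.7 CPM in those of run 3, against 30.3, 34.3 and 26.1 CPM in WT libraries of run 1 and 49.7 and 50.2 CPM in those of run 3. Within each run every KO library was below every WT library, but the KO libraries of run 3 were above the WT libraries of run 1. The log2 fold change of Srp9 was -0.46 ± 0.13 (SE, adjusted p = 0.0232 in edgeR's test), and neither run alone gave a call (-0.68 in run 1, -0.30 in run 3). Its call was lost without KO replicate 1 (log2 fold change -0.34, adjusted p = 0.0871) or without KO replicate 3 (-0.47, 0.0554), with adjusted p between 0.00664 and 0.565 over all alternatives run, and it rested on 62 to 330 reads per library. Reads of Srp14 per read of Srp9 numbered 9.15 and 5.77 in KO against 3.18, 2.95 and 3.74 in WT in run 1, and 3.06 and 3.20 in KO against 2.05 and 1.75 in WT in run 3. Whether reads from related copies of these small genes entered the counts is unknown from the labels.

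Of the receptor's subunits 1 was called. Srpr, the SRP-binding alpha subunit of the receptor, had 242, 243, 230 and 259 CPM in KO libraries, against 331, 336, 328, 356 and 290 CPM in WT libraries. The groups did not overlap, and Srpr fell by 0.43 on the log2 scale (SE 0.08, adjusted p = 0.00158 in edgeR's test), with -0.47 in run 1 and -0.41 in run 3. Srprb, the membrane-anchored beta subunit, averaged 44.5 ± 2.21 CPM in KO (SD, n = 4) and 43.3 ± 4.10 CPM in WT (SD, n = 5), a log2 fold change of 0.03 (95% interval -0.19 to 0.25), and was not called. There were 5.24 to 5.76 reads of Srpr for each read of Srprb in KO libraries and 6.55 to 9.28 in WT libraries, with no overlap. Srp72 and Srp68, which bind the SRP RNA as a pair, were not called at log2 fold changes of -0.23 (adjusted p = 0.0531) and 0.09 (0.502) in edgeR's test. Srp72 was called lower in 8 of 25 alternatives, DESeq2 (adjusted p = 0.0298) and limma-voom (0.0388) among them, with a range of 0.0205 to 0.333. Their ratio of reads was 1.61 to 1.80 in KO libraries and 1.99 to 2.32 in WT libraries, again without overlap. Srp19, needed for SRP assembly, had a log2 fold change of 0.05. Further partner pairs were counted. Reads of Sec31a per read of Sec13 numbered 6.22 to 8.44 in KO and 8.08 to 9.34 in WT, lower in KO within each run. Those of Lman1 per read of Mcfd2 (4.28 to 9.57 in KO, 5.665 to 8.85 in WT) overlapped in run 1. So did those of Tmed10 per read of Tmed2 (0.551 to 5.505 in KO, 0.689 to 5.684 in WT). In run 3 both were lower in KO. These pairs of partner genes were picked after their values had been seen, so the ratios are given as a description, without a test. How often other gene pairs separate KO from WT was not counted.

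**Figure D3:**
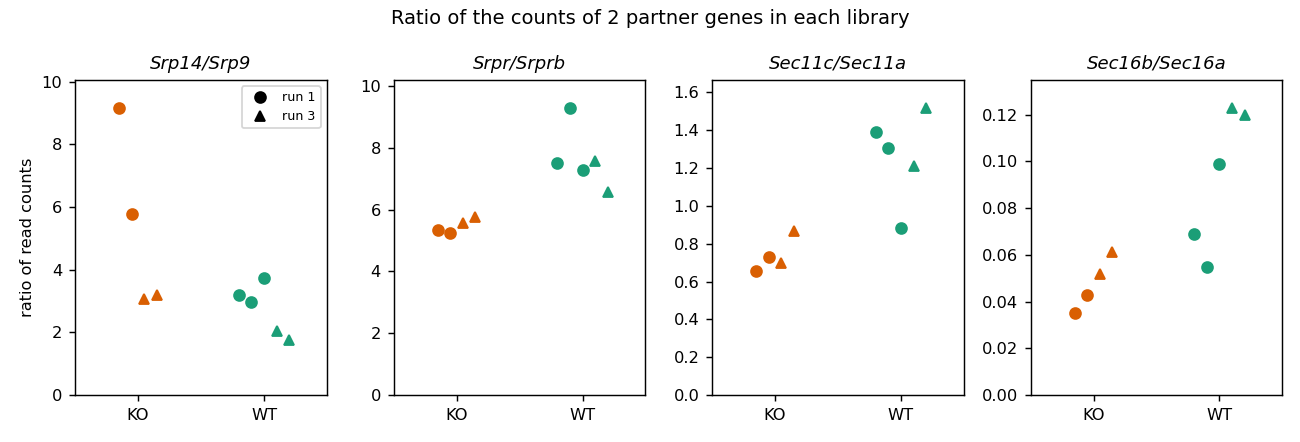
Reads of one partner gene per read of the other in each KO and WT library, with circles for run 1 and triangles for run 3. The ratios Srpr/Srprb, Sec11c/Sec11a and Sec16b/Sec16a were lower in KO libraries within each run, and Srp14/Srp9 was higher in KO libraries within each run.

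In the translocon, Sec63 was the 1 called gene of 6, so 16.7% fell, against 8.96% of all tested genes. Sec63 is the J-domain protein that recruits the chaperone BiP to the channel. It had 184 and 194 CPM in KO libraries of run 1 and 226 and 227 CPM in those of run 3, against 249, 269 and 249 CPM in WT libraries of run 1 and 261 and 239 CPM in those of run 3. The groups did not overlap, but the gap was narrow in run 3, and the log2 fold change of -0.30 ± 0.08 (SE, adjusted p = 0.0177 in edgeR's test) divided into -0.45 in run 1 and -0.15 in run 3. The call was lost without KO replicate 1 (-0.25, adjusted p = 0.079) or without KO replicate 2 (-0.28, 0.0541) and in the fit with the acinar level (-0.24, 0.112), with adjusted p between 0.00497 and 0.389 over all alternatives. The channel itself was not called: Sec61a1, the main pore subunit, averaged 221 ± 10.6 CPM in KO (SD, n = 4) and 190 ± 25.2 CPM in WT (SD, n = 5), a log2 fold change of 0.21 (95% interval 0.02 to 0.41, adjusted p = 0.126 in edgeR's test). The small subunits Sec61b (-0.10) and Sec61g (-0.14), the alternative pore subunit Sec61a2 (0.24) and Sec62 (0.18), which works with Sec63 on short precursors, were not called either. Sec63 spans 42761496 to 42832514 on chromosome 10.

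Of the 4 TRAP genes Ssr3, the gamma subunit, fell (25%, against 8.96% of all tested genes), and the other 3 were not called. It had 139 and 147 CPM in KO libraries of run 1 and 178 and 210.4 CPM in those of run 3, against 216, 194 and 216 CPM in WT libraries of run 1 and 275 and 237 CPM in those of run 3. KO libraries were below WT libraries within each run, and the run 3 KO replicate 4 overlapped the run 1 WT libraries. The log2 fold change was -0.48 ± 0.08 (SE, adjusted p = 0.00115 in edgeR's test), at -0.57 in run 1 and -0.41 in run 3. Ssr1, Ssr2 and Ssr4, the alpha, beta and delta subunits, had log2 fold changes of -0.15, -0.01 and -0.13. Ssr3 lies on chromosome 3 at 65379657 to 65392553.

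Of the 12 COPII genes Sec16b was the 1 called, so 8.33% fell, close to the 8.96% of all tested genes. Sec16b, the shorter of the Sec16 scaffold proteins of ER exit sites, had 10.3, 13.1, 11.5 and 13.1 CPM in KO libraries, against 20.5, 15.9, 30.1, 30.3 and 26.2 CPM in WT libraries. All KO libraries lay below the lowest WT library, WT replicate 2, on 41 to 201 reads per library. The averages of 12.0 ± 1.36 CPM in KO (SD, n = 4) and 24.6 ± 6.28 CPM in WT (SD, n = 5) corresponded to -1.07 ± 0.18 on the log2 scale (SE, adjusted p = 0.000937 in edgeR's test), the largest among the 42 genes. Run 1 alone gave -0.94 with an adjusted p of 0.0800 and run 3 alone -1.21 with an adjusted p of 0.00225. Sec16a, the longer scaffold protein, was not called at 259 ± 49.3 CPM in KO (SD, n = 4) and 271 ± 37.2 CPM in WT (SD, n = 5). There were 0.0351 to 0.0613 reads of Sec16b per read of Sec16a in KO libraries and 0.0547 to 0.123 in WT libraries.

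The coat and its GTPase gave small differences in both directions. The inner coat genes Sec23a (-0.07), Sec23b (-0.01), Sec24b (0.02), Sec24c (-0.01) and Sec24d (0.10), the GTPase genes Sar1a (0.11) and Sar1b (0.11), and the outer coat gene Sec13 (0.08) had intervals that spanned 0. Sec31a, the other outer coat subunit, had 378, 416, 317 and 306 CPM in KO libraries, against 439, 437, 443, 393 and 363 CPM in WT libraries. KO was lower within each run, and the log2 fold change of -0.21 missed the threshold (adjusted p = 0.0542, edgeR), with calls in DESeq2 (0.0182) and limma-voom (0.0242) and a range of 0.0182 to 0.403 over the alternatives. Sec24a, one of the cargo-binding Sec24 paralogs, had 54.7, 58.7, 56.0 and 51.8 CPM in KO libraries, against 46.9, 48.9, 44.0, 41.9 and 49.7 CPM in WT libraries. All KO values were above all WT values, and the log2 fold change of 0.26 was not called (adjusted p = 0.0643, edgeR).

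Paralogs of 1 subunit or family were compared as log2 ratios within each library, which need no scaling between libraries, by an exact two-sided permutation test within runs whose smallest p is 0.0167 over 60 arrangements. Of 10 ratios, none passed after Benjamini-Hochberg adjustment. Even at the smallest p, at least 4 ratios would have been needed for any to pass, and more at a larger p. The adjusted values therefore say little. Sec24b over Sec24a gave the smallest p the test allows (log2 difference -0.24, exact p = 0.0167, adjusted 0.111) with 2.32, 2.25, 1.66 and 1.65 reads of Sec24b per read of Sec24a in KO libraries, against 2.59, 2.60, 2.52, 2.10 and 2.04 in WT libraries. KO was lower within each run. Sec16b over Sec16a differed by -0.97 (exact p = 0.0333, adjusted 0.111) and Sec11c over Sec11a by -0.78 (exact p = 0.0333, adjusted 0.111). Kdelr3 over Kdelr1 differed by 0.49 (exact p = 0.05, adjusted 0.125), and the other 6 ratios had an exact p of at least 0.283.

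Among cargo receptors and retrieval genes, 2 of 8 fell (25%, against 8.96% of all tested genes). Of the 8 fold changes 7 were negative, against 48.0% of all tested genes. Lman1 (ERGIC-53), the mannose-binding receptor that escorts glycoproteins out of the ER, was the most abundant of the 42 genes in WT by FPKM. It had 337, 333, 306 and 296 CPM in KO libraries, against 489, 517, 418, 444 and 383 CPM in WT libraries. No KO library reached a WT library, and the log2 fold change was -0.48 ± 0.08 (SE, adjusted p = 0.000829 in edgeR's test), at -0.52 in run 1 and -0.47 in run 3. Its co-receptor Mcfd2 was at 52.3 ± 14.5 CPM in KO (SD, n = 4) and 64.3 ± 10.5 CPM in WT (SD, n = 5), a log2 fold change of -0.35 that was not called (adjusted p = 0.0776 in edgeR's test).

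Tmed10, a p24 family cargo receptor, had 148 and 158 CPM in KO libraries of run 1 and 172 and 195 CPM in those of run 3, against 195, 178 and 188 CPM in WT libraries of run 1 and 273 and 234 CPM in those of run 3. The genotypes separated within each run and overlapped across runs. The log2 fold change was -0.37 ± 0.08 (SE, adjusted p = 0.00525 in edgeR's test), and run 1 alone gave no call (-0.30, adjusted p = 0.129) while run 3 alone did (-0.47, adjusted p = 0.0109). Its p24 partner Tmed2 was not called (-0.26, adjusted p = 0.0808). The KDEL receptors Kdelr1 (-0.14), Kdelr2 (-0.10) and Kdelr3 (0.35) and the vesicle SNARE Sec22b (-0.17) were not called, and Kdelr3 rested on 7 to 60 reads per library.

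The log2 fold change had the same sign in both runs for 32 of the 42 genes, against 8750 of 12501 tested genes. It did so for all 10 called genes, but these were called from both runs together, so their agreement is not a separate check. In run 1 alone 6 of the 42 genes fell and 1 rose, against 2.92% and 3.13% of tested genes, and in run 3 alone 7 fell and 1 rose, against 4.24% and 3.93%. Srp14, Srpr, Spcs3, Sec11c, Lman1 and Ssr3 were called in each run on its own. The median over the 42 genes was -0.12 in run 1 and -0.11 in run 3, against 0.01 and -0.01 over all tested genes, and 25 and 29 of the 42 were negative, against 49.1% and 50.6%. With the acinar level as a covariate 7 of the 42 genes fell and 1 rose, against 5.43% and 5.97% of tested genes. The log2 fold changes in that fit were -0.93 for Sec11c, -0.52 for Spcs3, -1.15 for Sec16b, -0.48 for Lman1, -0.42 for Tmed10, -0.46 for Ssr3, -0.41 for Srpr and 0.49 for Srp14, all called. Srp9 (-0.44, adjusted p = 0.0827 in edgeR's test) and Sec63 were no longer called. Within each run, every KO library was below every WT library for 13 of the 42 genes, against 11% of tested genes, and above for 2, Srp14 and Sec24a, against 11.9%. Over both runs together 6 genes had all KO libraries below all WT libraries (5.13% of tested genes) and 2 above (5.97%). The interaction of genotype and run was called for 0 of the 42 genes and 0 of 12501 by edgeR, with 1 (Sec11a) and 744 at an unadjusted p under 0.05. Between f/+ and f/f controls edgeR called 0 of the 42 and 0 of 12501 genes, with 0 and 398 at an unadjusted p under 0.05. Both f/+ libraries were in run 1, where WT replicate 2 was the only f/f control. With so few libraries the lack of calls does not show that the control genotypes are alike.

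**Figure D4:**
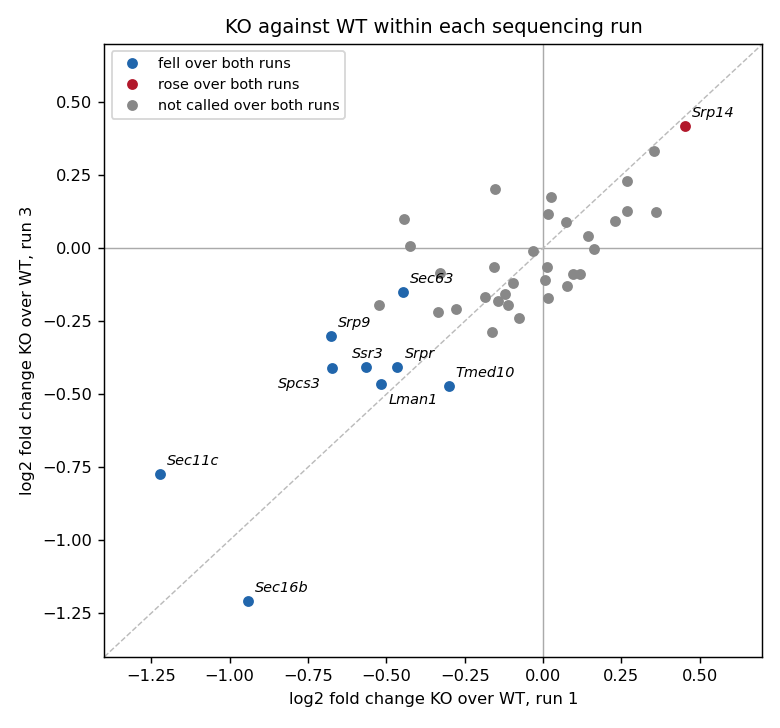
Log2 fold change of KO over WT in run 1 (horizontal axis) and in run 3 (vertical axis) for the 42 genes, with equal values on the dashed line. All 9 genes that fell lie to the lower left of the origin and Srp14 to the upper right, but they were called from both runs together. Sec63 and Srp9 lie farther from 0 in run 1 than in run 3.

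The levels of the 42 genes spanned a wide range, described here in FPKM, the authors' values per length of transcript. In KO the highest means were 182 ± 16.0 FPKM for Srp14, 143 ± 6.97 for Lman1 and 112 ± 19.4 for Ssr4 (SD, n = 4). In WT they were 201 ± 24.0 FPKM for Lman1, 175 ± 35.6 for Sec11c and 136 ± 9.36 for Srp14 (SD, n = 5), and Sec11c and Srp14 were within their spread of each other in WT. Sec11c, next after Lman1 in WT, stood below Srp14, Lman1, Ssr4 and Sec61b in KO by mean. Against Sec61b this order did not hold in run 1. There Sec61b had 38.3 and 50.7 FPKM in KO, and Sec11c had 75.0 and 77.6. At the low end were Sec16b (1.99 ± 0.56 FPKM in KO and 4.40 ± 1.03 in WT), Sec61a2 (3.15 ± 1.19 in KO and 2.31 ± 1.18 in WT) and Kdelr3 (4.89 ± 2.25 in KO and 3.25 ± 1.43 in WT), which overlapped one another in WT. Sec61a1 stood far above its paralog Sec61a2 in every library, and Sec24a was the lowest of the Sec24 genes, at 7.25 ± 0.29 FPKM in KO and 6.16 ± 0.24 in WT.

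**Figure D5:**
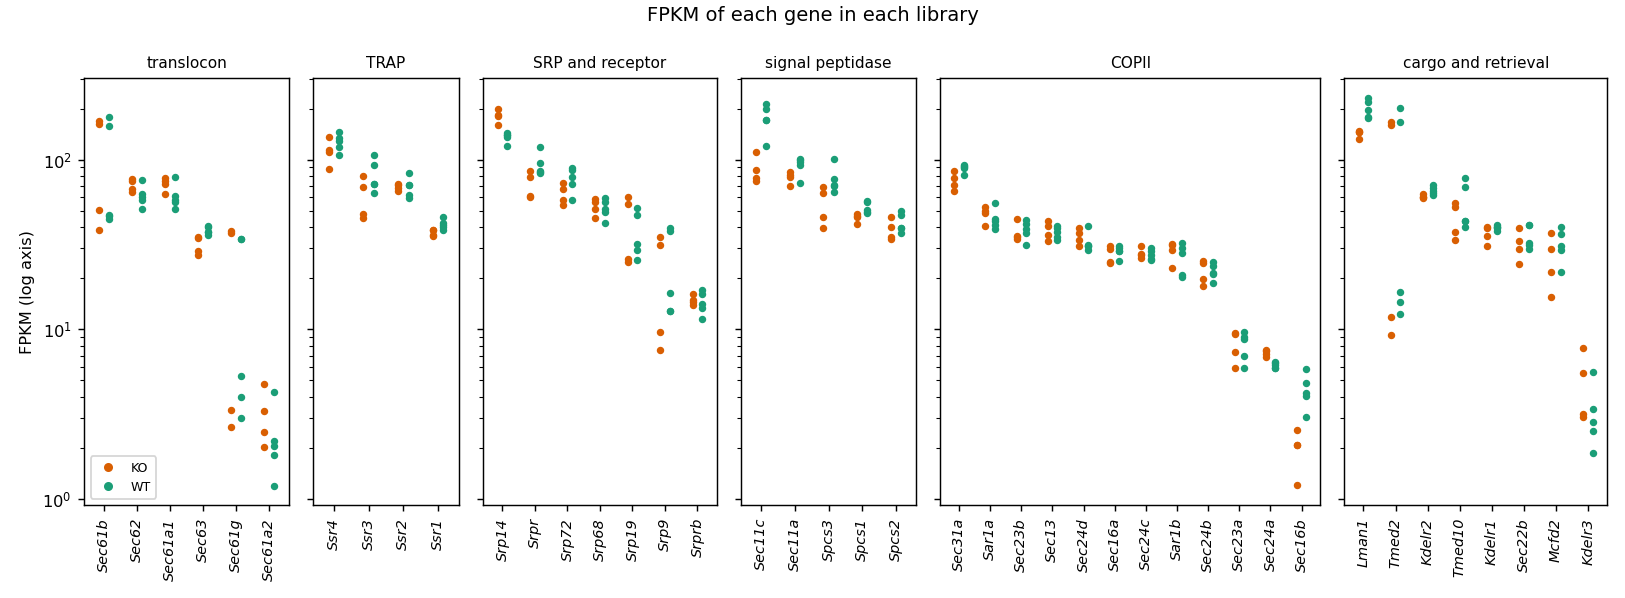
FPKM on a log axis for each of the 42 genes in every library, KO to the left of WT within each gene and genes in falling order of their WT mean within 6 role groups. Sec61b, Sec61g, Srp9 and Tmed2 split into a low and a high cluster in both genotypes, the low libraries being those of run 1.

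For several of these genes the runs differed by more than the genotypes did. The run term was called for 17 of the 42 genes, 10 of them higher in run 3, against 31.4% of tested genes in either direction. Tmed2 had 27.0 and 33.4 CPM in KO and 39.3, 40.8 and 33.1 CPM in WT in run 1, against 312 and 309 CPM in KO and 397 and 322 CPM in WT in run 3. Its mean level in run 3 was 9.66 times that in run 1 over both genotypes. Sec61a2 (log2 difference of run 3 over run 1 1.04), Kdelr3 (0.97), Srp9 (0.89), Srp19 (0.88), Sec61g (0.82) and Sec61b (0.56) also rose in run 3. Mcfd2 (0.42), Tmed10 (0.36) and Ssr3 (0.36) rose by less. Where the run term was called lower in run 3, it ranged from -0.43 (Sec24b) to -0.21 (Kdelr2). In FPKM the shift of the small translocon subunits was larger than in counts. Sec61g had 2.66 and 3.33 FPKM in KO and 3.02, 3.997 and 5.35 FPKM in WT in run 1, against 38.2 and 37.1 FPKM in KO and 33.9 and 34.0 FPKM in WT in run 3. The part of the preparation or processing in these differences was not tested.

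Promoter windows of 33 of the 42 genes, 7 of them called, were found in RefSeq's table for GRCm38.p6 (250 bases before the start to 50 after it), and they were searched because response elements of ER stress genes are known to lie near gene starts. The called genes Sec11c, Lman1 and Spcs3 had no window, so the search does not cover them. Motifs were searched on both strands as exact letters: ERSE (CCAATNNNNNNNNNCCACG), UPRE (TGACGTGG), CARE (TGATGNAAT) and CCACG, which is part of ERSE and, on the opposite strand, of UPRE. UPRE was found in 4 of the 33 genes (12.1%), Sec16b, Sec23a, Sec24d and Kdelr3, against 0.714% of the 27025 genes in the table. CCACG was found in 22 of 33 (66.7%), against 35.5%, and ERSE and CARE in 0 of 33, against 0.137% and 1.08%. The windows of the genes had a median GC content of 58.7%, against 52.7% over all windows, and the share of motifs that this could give was not tested. A match is a run of letters and not a shown binding site.

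The 4 windows with UPRE are printed with the motif in capitals on either strand. They lie at chr1:157506546-157506845 (plus strand) for Sec16b, which has another window in the table without the motif, chr12:59011968-59012267 (minus strand) for Sec23a, chr3:123267246-123267545 (plus strand) for Sec24d and chr15:79516158-79516457 (plus strand) for Kdelr3. The motif begins at position -44 for Sec16b, 6 for Sec23a, -26 for Sec24d and -30 for Kdelr3, counted from the annotated start, and in Kdelr3 it is on the opposite strand. Of these 4 genes Sec16b fell in KO islets and the other 3 were not called.
Sec16b: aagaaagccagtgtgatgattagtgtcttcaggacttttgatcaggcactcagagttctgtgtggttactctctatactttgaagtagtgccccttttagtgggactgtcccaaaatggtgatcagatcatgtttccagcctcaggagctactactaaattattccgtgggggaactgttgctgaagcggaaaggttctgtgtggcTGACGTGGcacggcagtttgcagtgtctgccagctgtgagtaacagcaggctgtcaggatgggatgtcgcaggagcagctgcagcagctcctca
Sec23a: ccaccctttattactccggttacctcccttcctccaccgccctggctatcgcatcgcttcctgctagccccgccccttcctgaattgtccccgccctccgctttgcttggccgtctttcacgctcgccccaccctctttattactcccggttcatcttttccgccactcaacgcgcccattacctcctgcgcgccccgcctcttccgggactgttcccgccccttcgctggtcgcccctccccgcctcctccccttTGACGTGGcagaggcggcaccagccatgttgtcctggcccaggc
Sec24d: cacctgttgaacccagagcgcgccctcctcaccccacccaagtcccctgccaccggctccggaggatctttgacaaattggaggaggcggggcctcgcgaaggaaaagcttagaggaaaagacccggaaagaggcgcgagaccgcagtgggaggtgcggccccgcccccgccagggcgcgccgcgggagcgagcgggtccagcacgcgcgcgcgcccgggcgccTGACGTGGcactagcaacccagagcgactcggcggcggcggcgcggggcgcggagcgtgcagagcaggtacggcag
Kdelr3: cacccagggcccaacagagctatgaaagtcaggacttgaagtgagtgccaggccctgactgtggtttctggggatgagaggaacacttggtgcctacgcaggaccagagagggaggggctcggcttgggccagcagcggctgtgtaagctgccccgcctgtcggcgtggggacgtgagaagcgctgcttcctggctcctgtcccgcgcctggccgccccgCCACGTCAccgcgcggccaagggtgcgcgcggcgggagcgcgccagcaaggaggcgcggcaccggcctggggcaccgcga

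The windows of Srp9, at chr1:182124487-182124786 (plus strand), and Srp14, at chr2:118479647-118479946 (minus strand), are printed because these partners moved in opposite directions. CCACG, in capitals, is in the window of Srp9 at position -168, and none of the 4 motifs is in that of Srp14.
Srp9: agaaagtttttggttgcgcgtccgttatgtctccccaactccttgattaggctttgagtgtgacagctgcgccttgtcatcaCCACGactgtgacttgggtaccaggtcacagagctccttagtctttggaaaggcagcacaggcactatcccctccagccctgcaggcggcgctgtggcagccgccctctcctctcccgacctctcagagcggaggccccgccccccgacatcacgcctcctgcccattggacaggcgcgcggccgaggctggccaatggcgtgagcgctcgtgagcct
Srp14: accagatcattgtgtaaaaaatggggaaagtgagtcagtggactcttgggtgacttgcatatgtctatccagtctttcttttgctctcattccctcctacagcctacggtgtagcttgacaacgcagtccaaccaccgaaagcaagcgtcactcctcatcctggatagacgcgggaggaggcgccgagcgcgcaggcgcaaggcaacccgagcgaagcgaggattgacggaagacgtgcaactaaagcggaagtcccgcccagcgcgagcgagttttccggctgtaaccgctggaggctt

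Other genes of the same route were counted from lists of textbook members, chosen with earlier results of these data known. Of 12 tested helpers of translocation outside the 42, 5 fell (41.7%, against 8.96% of all tested genes) and 1 rose (8.33%, against 9.56%), with a median of -0.29. Dnajc1, an ER J-domain protein, had 81.4, 75.0, 61.3 and 59.6 CPM in KO libraries, against 121, 126, 108, 78.5 and 94.1 CPM in WT libraries, a log2 fold change of -0.56 (adjusted p = 0.000409 in edgeR's test). Hyou1 and Sil1, both nucleotide exchange factors of BiP, fell by 0.48 each. Hspa13 (-0.28) and Rrbp1 (-0.29) also fell, and Ckap4 rose (0.31). Tram1 (-0.04), Tram2 (0.36), Bcap29 (-0.37) and Bcap31 (-0.06) were not called. Neither were Srp54a (0.12) and Srp54b (-0.91), which were positive in run 1 and negative in run 3. Of 36 tested genes of COPII vesicles and the ER-Golgi intermediate compartment, 10 fell (27.8%, against 8.96%) and 3 rose (8.33%, against 9.56%), with a median of -0.20. Bet1, a SNARE of ER-to-Golgi vesicles, fell by 0.89 on the log2 scale, and Tmed4, a p24 family member, rose by 0.39. Mia2, a cargo receptor for large secretory cargo, fell by 0.91, but its gene model overlaps Ctage5 and the division of reads between them is uncertain.

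The lists for membrane protein insertion and for the COPI coat held few called genes. Of 16 tested EMC and GET genes, which insert membrane proteins, 1 fell (Emc2, -0.78) and 1 rose (Emc8, 0.69), with a median of -0.06. Of 16 COPI genes, which run the return path from the Golgi, 1 fell (Copg2, -0.47), with a median of -0.13. Their shares of falls, 6.25% each, were below the 8.96% of all tested genes, and the difference from the other lists was not tested.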

How the data were processed

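Total RNA of islets was made into 9 low-input, stranded libraries and read on a HiSeq2500, per the labels. As deposited, 1 table holds raw counts by gene symbol (24420 rows), and the other holds the authors' FPKM values (24347 rows). FastQC, Bowtie2 2.2.4.0, Cuffdiff 2.2.1, edgeR and mm10 are named, with no role, per the submitters' processing notes. The counting tool, its strand setting and its treatment of related copies are not stated by them. Rows whose symbol had become a date (27, holding 0.133% to 0.186% of counts) were left out.

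The counts as deposited were tested with edgeR 4.0.16 (R 4.3.3): TMM, the default low-count filter by genotype, run and genotype in the model, quasi-likelihood test, and a call at an adjusted p under 0.05 over 12501 genes. It was repeated for each run alone, for the interaction and between control genotypes. CPM use TMM-scaled library sizes, standard errors come from the F statistic, and paralog ratios use a prior count of 2. Alternatives used DESeq2 1.42.0, limma 3.58.1 on voom and on log2(FPKM + 1) or log2(FPKM + 0.1), other scaling and filters, f/f controls alone, acinar level as a covariate, and fewer libraries. The scripts were tested on simulated data. No pair of replicates agreed within counting noise (chi-square of 3.35 to 45.4 per degree of freedom), so none was taken as 1 library deposited again, which does not show that they are separate mice.

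The genes, the lists and the naming rule were chosen with earlier results of these data known. In each role group the 3 called genes with the lowest p get full values. Each further list gives up to 3 called genes, except that all tested genes of the translocation list are named. Partner ratios were added after their values were seen. Of the marker lists, 5 of 10 beta and 3 of 16 acinar genes tested were lower in KO, against 8.96% of all tested genes. The duct (0 of 6), endothelial (0 of 5) and macrophage (0 of 5) lists held no lower gene. Higher were 2 of 5 delta and PP, 1 of 5 alpha, 1 of 6 fibroblast and 1 of 3 Schwann genes, against 9.56%.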

Additional observations from a re-analysis of the deposited data

Results flagged for a closer look

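In 3 of 84 groups of libraries, 1 library lay far from the others of its gene and genotype. This is no more than the 1 in 20 that chance gives for libraries of a single even group. Each group pooled both runs, so that rate does not hold for genes that differed between runs. Sec24c was at 125.6 CPM in KO replicate 4, while the other KO libraries were at 135.8 to 136.8 CPM. Srprb was at 36.3 CPM in WT replicate 2, while the other WT libraries were at 44.0 to 47.0 CPM. Sec24d was at 158 CPM in WT replicate 4, while the other WT libraries were at 124 to 130 CPM. None of these genes was called between KO and WT.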

How the results depend on the processing

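Over 25 alternatives the number of the 42 genes that fell was 5 with no run term (2.34% of all tested genes) and 6 to 12 otherwise. It was 6 with FPKM unfiltered (2.18%) and in run 1 (2.92%), 7 with f/f controls alone (5.92%) or the acinar covariate (5.43%), 11 without Rn45s (9.65%) and 7 to 12 when each library was left out in turn, with 7 without KO replicate 1 (5.90%) and 12 without WT replicate 5 (8.51%). Over all alternatives the share of tested genes lower in KO was 2.18% to 9.65%. The number that rose was 1 or, with FPKM unfiltered or without WT replicate 4, 2 (Sec24a or Sec61a1 added). The median moved to -0.052 with no run term and lay between -0.137 and -0.079 with 1 library left out. Srp14, Srpr, Spcs3, Sec11c and Lman1 were called in all 25, Ssr3 in 24, Sec16b and Tmed10 in 23, Sec63 in 17 and Srp9 in 16. Ssr3 (adjusted p = 0.112), Tmed10 (0.197), Sec63 (0.119) and Srp9 (0.565) were lost without the run term, and Sec16b (0.0738) in FPKM unfiltered. No paired analysis was possible because the labels give no replicate numbers that the groups share. Low read numbers limit Kdelr3, Sec61a2, Sec16b and Srp9.

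Genes that were not called changed sign in some settings, and the cause was not tested. With no run term these were Sec24b (-0.0054) and Tmed2 (0.033). With f/f controls alone they were Sec61g (0.029), Ssr2 (0.013), Sec24b (-0.044) and Sec24c (0.031), and with the acinar covariate Srprb (-0.024), Sec24b (-0.033) and Sec24d (-0.016). In FPKM with a pseudocount of 1, filtered or not, Sec24c was at 0.0297, and with 0.1 Sec24c was at 0.0306 and Srp19 at -0.00067. Srprb was at -0.0429 without WT replicates 2 and 5. Without KO replicate 2 and WT replicate 2, Srprb was at -0.0432, Sec23a 0.0308, Sec23b 0.0227, Sec24b -0.0023 and Sar1b -0.0063. Run 1 alone gave Ssr2 0.0127, Srp19 -0.155, Sec23a 0.0158, Sec23b 0.0765 and Sec16a 0.0051, and run 3 alone gave Sec61g 0.101, Srprb -0.0878, Sec11a 0.0079, Sec24b -0.0866 and Sec24d -0.0013. With 1 library, or KO replicate 2 and WT replicate 2 together, left out, Srprb ranged from -0.0432 to 0.0726, Sec23a -0.237 to 0.0325, Sec23b -0.113 to 0.0933, Sec24b -0.0147 to 0.0669, Ssr2 -0.0862 to 0.0750, Srp19 -0.0471 to 0.109, Sec24c -0.0349 to 0.0098, Sar1b -0.0198 to 0.215 and Sec16a -0.0763 to 0.0102. The log2 ratios then ranged from -0.0222 to 0.169 for Sec23b/Sec23a, -0.186 to 0.147 for Sar1b/Sar1a, -0.0144 to 0.108 for Kdelr2/Kdelr1 and -0.142 to 0.0849 for Sec61a1/Sec61a2.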
